A study of Mus musculus with 30 samples.

Results

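The genes described here are 10 transcription factors of the myeloid lineages, the white blood cells that include granulocytes, monocytes and macrophages. They are Spi1, Cebpa, Cebpb, Cebpd, Klf2, Klf4, Runx1, Nfil3, Id2 and Nr4a1. They were taken by symbol from the count tables of bone marrow (BM) and of adipose tissue macrophages (ATMs). All 10 were in both tables, among 13353 genes in BM and 17059 genes in ATMs, and all 10 passed the filter on low counts in both.

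The study asked how obesity acts on blood cells that carry a leukemia mutation, and whether 2 drugs alter its effect. Lethally irradiated mice received CD45.2+ BM from Shp2E76K/+;LysM-Cre+ donors, mixed in equal number with CD45.1+ BM of Boy/J mice. Shp2E76K is an activating mutation of the phosphatase Shp2 and LysM-Cre acts mainly in myeloid cells. Cells with and without the mutation, and any host cells that survived irradiation, were thus sequenced together in groups given these donor cells. Recipients were WT mice or leptin-deficient, obese Ob/Ob mice. From 8 weeks after transplantation, 4 groups of Ob/Ob recipients were given, for 30 days, vehicle (Vehicle), the GLP-1R agonist beinaglutide at 3 mg/kg, an anti–IL-17A antibody at 200 μg per mouse 3 times a week, or both agents (Combo). The WT recipients carry no treatment in the labels. The labels put the mice, of both sexes, at about 12 to 14 weeks of age without saying when, and the times after transplantation leave it unlikely that this was the age at sampling. Each group gave 3 libraries per tissue, 30 in all, from whole BM and from F4/80+ cells sorted from visceral fat. The donor is not labelled sample by sample, and in one place the study names WT donor cells for the WT libraries of ATMs. Its wording there can also be read as Ob/Ob recipients in both groups, whereas elsewhere it names WT mice. A difference in donor and a difference in recipient therefore cannot be told apart in that comparison.

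Spi1 encodes PU.1, the ETS-family factor that myeloid cells need to form, and Runx1 and Cebpa act with it at the branch from multipotent progenitors to granulocytes and monocytes. Cebpb and Cebpd, of the same C/EBP family as Cebpa, are induced by inflammatory cytokines, and Cebpb drives granulocyte output in infection. Klf4 promotes monocyte differentiation, Klf2 restrains inflammatory activation of myeloid cells, Nr4a1 is an immediate early gene and is needed for patrolling monocytes, Nfil3 is a repressor of the bZIP class needed for natural killer cells, and Id2 binds E proteins and keeps them off DNA.

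Levels below are normalized counts, counts divided by the effective library size (total count times the TMM factor) and multiplied by its mean over the tissue's 15 libraries. BM libraries held 31086184 to 39925495 counts and ATM libraries 24876074 to 45300263, so all member counts were far above the detection limit. A gene is said to have been called where the edgeR quasi-likelihood test gave an adjusted p under 0.05 and the absolute log2 fold change was above 1, the limits that the study used. The biological coefficient of variation was 3.51% in BM and 32.5% in ATMs. In BM, where libraries of a group lay so close together, 95.1% of all genes differed among the 5 groups at an adjusted p under 0.05, and in ATMs 73.5% did. All 10 members did so in both tissues, and the size of their changes is therefore of more use than the tests alone. The p-values rest on the spread among the 3 libraries of a group, which were labelled as biological replicates. Whether each library came from a separate mouse was not tested. In BM, with libraries this close, the p-values may not measure the spread between mice.

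The libraries also differed in cell content. F4/80+ libraries held summed macrophage markers (9 genes, among them Adgre1, which encodes F4/80, Cd68 and Mrc1) of 2323 to 2398 CPM in WT, 1245 to 1308 in Vehicle, 3951 to 4127 with the GLP-1R agonist, 6424 to 6664 with anti–IL-17A and 3596 to 3688 in Combo, and none of the 9 was at 0. Combo alone held pancreas markers (4 genes) at 628 to 636 CPM, against at most 5.63 elsewhere, and immature granulocyte markers (5 genes, among them Mpo and Elane) at 382 to 408 CPM, against 5.27 to 21.1. Fibroblast markers summed to 4031 to 4342 CPM in Vehicle and to between 12255 and 19553 in the other groups, above the macrophage markers in every group. Mature neutrophil markers summed to 13874 to 14721 CPM in Vehicle and 7769 to 8077 in Combo, but only 129 to 257 in the other 3 groups, with none of the 5 measured genes at 0. The Vehicle and Combo libraries of sorted F4/80+ cells thus held more neutrophil than macrophage marker counts. Erythroid markers (4 measured genes) were above the macrophage markers in WT (4304 to 4508 CPM), Vehicle (5426 to 5599) and Combo (5784 to 5955). They were at 1360 to 1444 CPM with the GLP-1R agonist and 1205 to 1226 with anti–IL-17A. Epididymis markers (3 measured genes), which come with the fat pad of males, summed to 3305 to 3460 CPM in WT, 39.8 to 43.4 with the GLP-1R agonist and 136 to 166 with anti–IL-17A, and to at most 0.477 in Vehicle and 0.456 in Combo. In BM, immature granulocyte markers were at 5086 to 5728 CPM in WT and 4021 to 4095 in Vehicle. They were at 5757 to 5825 with the GLP-1R agonist, 7265 to 7413 with anti–IL-17A and 9653 to 9796 in Combo. Monocyte markers summed to 3351 to 3468 CPM in Vehicle and to between 1224 and 1796 elsewhere. Of these 5 monocyte genes, 1 was called higher and 1 lower in Vehicle than in WT. The median of their log2 changes was 0.01, so the list as a whole did not share the higher sum. B cell markers were at 1141 to 1175 CPM in WT, 308 to 321 in Vehicle and 97.2 to 99.8 in Combo. One BM library stood apart: WT replicate 1 differed from the other WT libraries by a chi-square of 34.8 and 26.6 per gene, where the other pairs of BM replicates were at 2.02 to 4.21. Xist, which is expressed in female cells, had mean normalized counts in BM of 1.58 in WT, 6544 in Vehicle, 2.17 with the GLP-1R agonist, 98.4 with anti–IL-17A and 3610 in Combo, and in ATMs of 16.3, 1250, 0, 13.5 and 1129, so sex of the recipients or donors, which the labels do not give per sample, moved with the groups. The part of cell content and sex in the results below was not tested, and in bulk samples fewer cells of a type and less RNA per cell cannot be told apart.

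**Figure D1:**
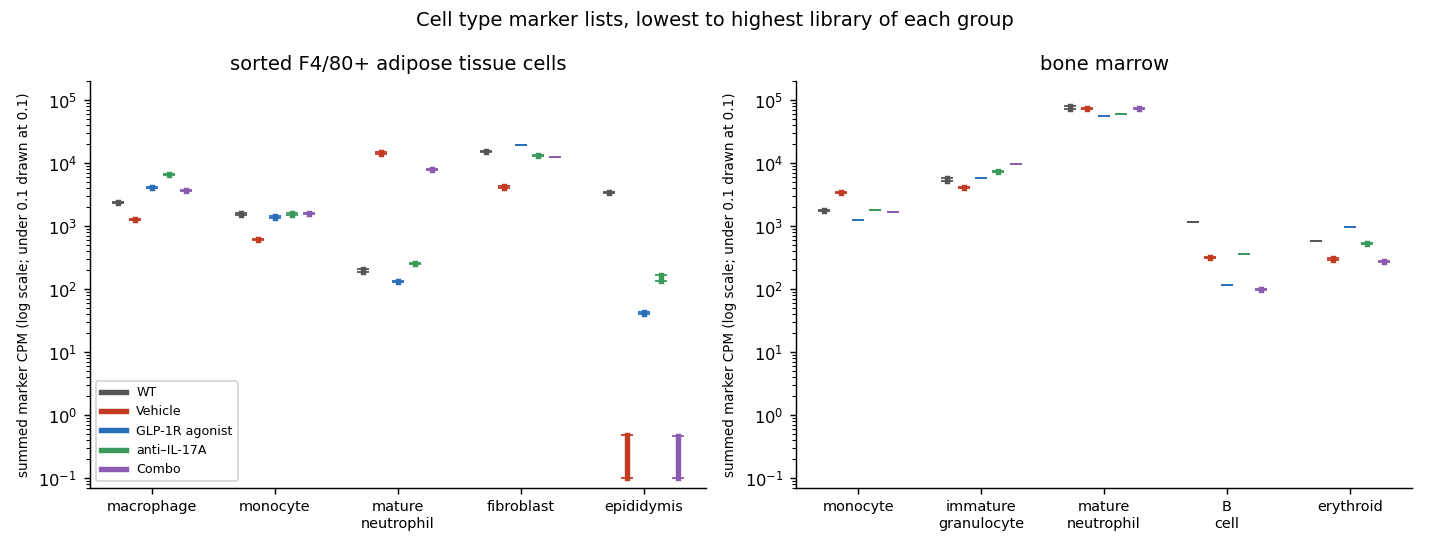
Summed CPM of cell type marker lists (log axis), drawn from the lowest to the highest of the 3 libraries of each group, in sorted F4/80+ adipose tissue cells (left) and BM (right). Mature neutrophil markers in the adipose tissue cells reached 13874 to 14721 CPM in Vehicle and 129 to 132 CPM with the GLP-1R agonist.

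In BM of Ob/Ob recipients given vehicle, 6 of the 10 factors were called against WT recipients, where 19.5% of all genes were. Cebpb, Nfil3, Id2 and Nr4a1 rose, and Cebpd and Klf4 fell. By adjusted p alone 9 of 10 differed, beside 76.6% of all genes, with Runx1 the exception. Without WT replicate 1 the count of calls was also 6. The median log2 fold change was 0.44 over the members and -0.02 over all genes.

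Klf4 had the largest change. Its normalized counts were 1712, 1700 and 1630 in the WT libraries and 204, 217 and 281 in Vehicle. With the GLP-1R agonist they were 1186, 1190 and 1252, with anti–IL-17A 2467, 2470 and 2439, and in Combo 1572, 1506 and 1544. No Vehicle library came near those of any other group, and the anti–IL-17A libraries were the highest. Klf4 fell 7.22-fold in Vehicle against WT (log2 fold change -2.85, SE 0.07, edgeR adjusted p = 1.63e-32). Against Vehicle it rose 5.19-fold with the GLP-1R agonist, 10.5-fold with anti–IL-17A and 6.61-fold in Combo. Across the 5 groups its highest mean was 10.5 times its lowest, a wider range than in 96.7% of BM genes, whose median ratio was 1.75.

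Id2, the inhibitor of E proteins, moved the other way. It had 3135, 2749 and 2857 normalized counts in WT and 12695, 12290 and 12322 in Vehicle, a 4.26-fold rise (log2 2.09, SE 0.04, edgeR adjusted p = 1.69e-31). The treated groups lay between, at 7370 to 7397 with the GLP-1R agonist, 3935 to 4071 with anti–IL-17A and 5226 to 5703 in Combo. These ranges did not overlap one another or those of WT and Vehicle. Between any pair of groups in BM, 61% to 76% of all genes were also without overlap. Id2 was called lower than in Vehicle with anti–IL-17A (3.10-fold) and in Combo (2.30-fold), whereas with the GLP-1R agonist its 1.68-fold lower level was within the limit on fold change.

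Cebpb and Nfil3 had the closest pattern of any 2 members in BM, with a Pearson r of 0.94 of log2 CPM over the 15 libraries, which share their groups. Cebpb was at 2980, 3697 and 3013 in WT and at 10077, 9568 and 8727 in Vehicle, 2.93-fold higher (log2 1.55, SE 0.12, edgeR adjusted p = 3.68e-07). Nfil3 went from 1225, 1365 and 1337 to 3512, 3579 and 3484 (log2 fold change 1.43, SE 0.05, edgeR adjusted p = 9.03e-28). For both genes Vehicle was the highest group and the GLP-1R agonist group the lowest. With the GLP-1R agonist Cebpb was at 2540 to 3472 and Nfil3 at 1132 to 1303, overlapping the WT libraries, and both were called lower than in Vehicle (3.25-fold and 2.92-fold). With anti–IL-17A Nfil3 was called lower (2.28-fold) and Cebpb, at 5000 to 5599, was 1.79-fold lower, within the limit. In Combo Cebpb (4786 to 5633) and Nfil3 (2128 to 2184) were 1.78-fold and 1.63-fold lower than in Vehicle, neither past the limit on fold change. Part of the Cebpb exon, 20.7% of its length in the GENCODE M21 annotation, lies on exons of Tmem189 on the opposite strand, and counting ignored strand, so these reads cannot be told apart. Tmem189 rose from 1650 ± 51.4 (SD, n = 3) in WT to 4053 ± 210 (SD, n = 3) in Vehicle.

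Cebpd, the other C/EBP factor of acute inflammation, had the opposite pattern. It had 4135, 4213 and 4120 normalized counts in WT and 2003, 1935 and 1825 in Vehicle, 2.16-fold lower (log2 -1.11, SE 0.04, edgeR adjusted p = 6.74e-28). The GLP-1R agonist libraries were at 3118 to 3277, the anti–IL-17A libraries at 4078 to 4248 and the Combo libraries at 4851 to 4999. The rise against Vehicle was 1.66-fold, 2.17-fold and 2.55-fold in turn, and only the last 2 were called. Its pattern over the 15 libraries was nearest, among members, to that of Klf4 (r = 0.92). Spidr, on the opposite strand, shares 15% of the Cebpd exon and had 1483 ± 87.8 (SD, n = 3) in WT and 929 ± 49.2 (SD, n = 3) in Vehicle.

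Nr4a1 was the member in which the 2 agents differed most. It had 877, 834 and 837 normalized counts in WT and 1987, 2083 and 2153 in Vehicle, 2.44-fold higher (log2 1.29, SE 0.05, edgeR adjusted p = 1.58e-24). With the GLP-1R agonist it was at 960 to 1059, with anti–IL-17A at 2489 to 2601 and in Combo at 1034 to 1168. The anti–IL-17A libraries were thus above those of Vehicle, and the Combo libraries overlapped those of the GLP-1R agonist. Nr4a1 was called lower than in Vehicle with the GLP-1R agonist (2.07-fold), and was 1.87-fold lower in Combo, within the limit.

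The 3 lineage factors and Klf2 changed less in BM. Spi1 had 10360 to 11198 normalized counts in WT, 14800 to 15475 in Vehicle, 10281 to 10588 with the GLP-1R agonist, 12678 to 12983 with anti–IL-17A and 17656 to 17949 in Combo. It was 1.40-fold higher in Vehicle than in WT and 1.65-fold higher in Combo, so that Combo was its highest group, as it was for Cebpa and Cebpd. Immature granulocyte markers, at 9653 to 9796 CPM, were also highest in Combo, and 3 of the 5 were called higher there than in Vehicle. Their sum was lower in Vehicle (4021 to 4095 CPM) than in WT (5086 to 5728), with 0 called, while Spi1 and Cebpa were higher in Vehicle. Their part in the levels of these factors was not tested. Cebpa went from 2054 to 2225 in WT to 2514 to 2681 in Vehicle (1.22-fold) and 2900 to 2976 in Combo (1.39-fold). Runx1 had 2096 to 2182 in WT and 1973 to 2131 in Vehicle, which overlapped (log2 -0.07, SE 0.04, edgeR adjusted p = 0.135). The ratio of its highest to its lowest group mean, 1.20, was above that of only 4.03% of BM genes. Klf2 had 5638 to 6044 in WT, 7522 to 7978 in Vehicle and 3698 to 3870 with the GLP-1R agonist, the last 2.04-fold lower than in Vehicle and called.

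**Figure D2:**
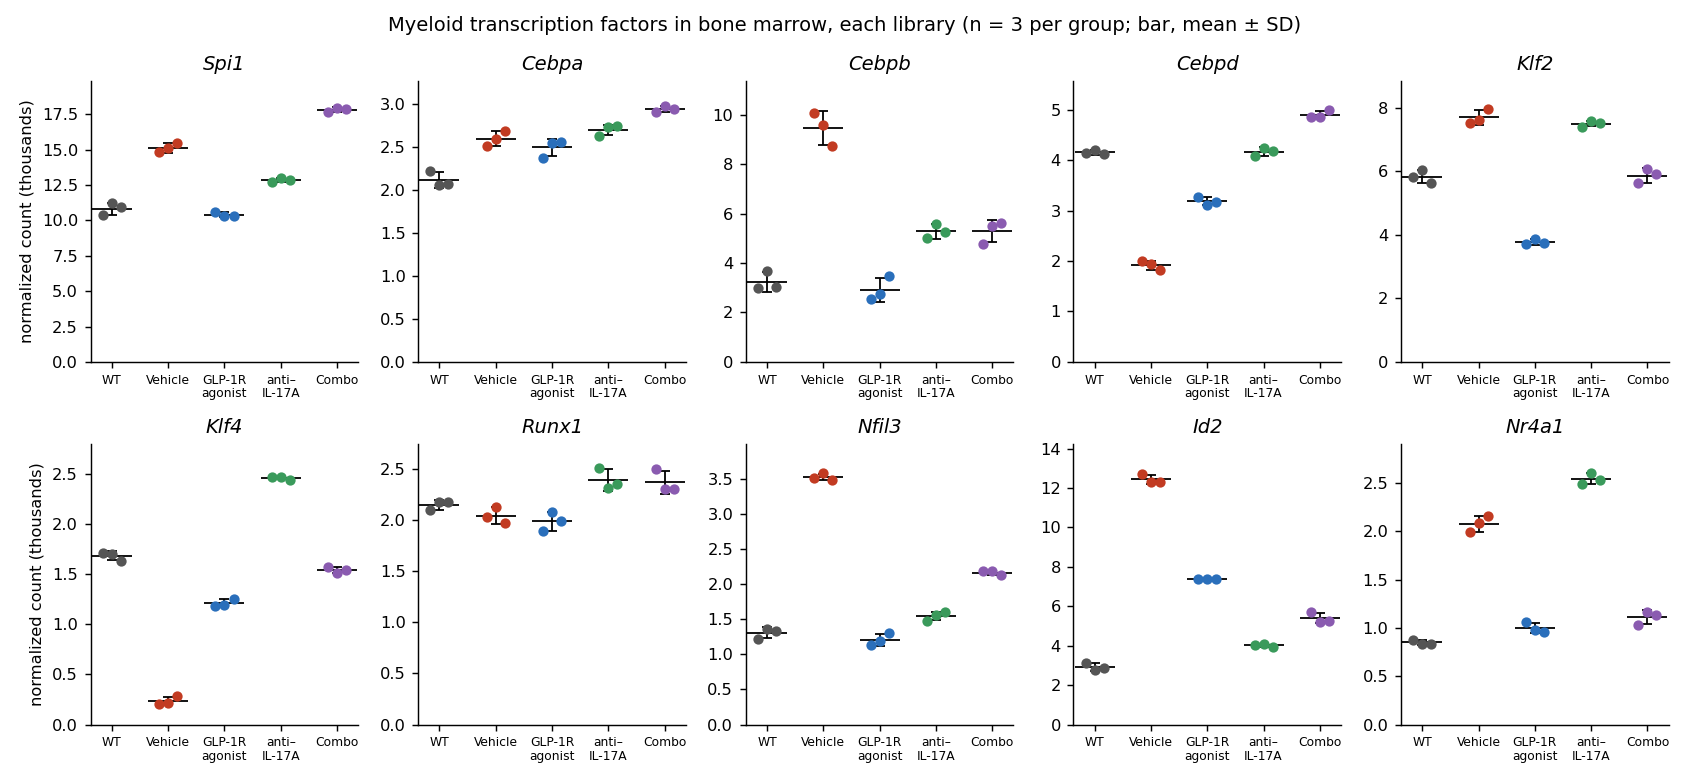
Normalized counts (axis in units of 1000) of the 10 factors in each BM library, with the mean and SD of the 3 libraries of each group. Klf4 lies at 204 to 281 normalized counts in Vehicle and at 1186 or above in the 4 other groups, and Id2 shows the reverse order of WT and Vehicle.

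For Klf4, Id2, Cebpb and Nfil3, the members with the widest changes or the closest pattern in BM, the 250 bases before the annotated start are shown, since promoters of genes that move together or apart are where shared sequence would be sought. They are from RefSeq, build GRCm38.p6, written in the direction of the gene, with every GC box (GGGCGG) and CCAAT box (CCAAT), on either strand, in capitals. The windows lie at chr4:55532476-55532725 (minus strand) for Klf4, chr12:25096093-25096342 (minus) for Id2, chr2:167688665-167688914 (plus) for Cebpb and chr13:52981040-52981289 (minus) for Nfil3.
Klf4: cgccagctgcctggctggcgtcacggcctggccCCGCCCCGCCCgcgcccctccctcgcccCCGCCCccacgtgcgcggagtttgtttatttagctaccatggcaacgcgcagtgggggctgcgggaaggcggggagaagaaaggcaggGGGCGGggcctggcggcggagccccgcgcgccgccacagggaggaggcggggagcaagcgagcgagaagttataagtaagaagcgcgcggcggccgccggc
Id2: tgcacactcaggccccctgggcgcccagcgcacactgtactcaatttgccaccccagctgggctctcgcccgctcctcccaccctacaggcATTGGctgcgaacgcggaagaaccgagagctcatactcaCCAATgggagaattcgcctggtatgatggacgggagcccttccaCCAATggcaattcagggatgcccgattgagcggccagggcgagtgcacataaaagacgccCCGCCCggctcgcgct
Cebpb: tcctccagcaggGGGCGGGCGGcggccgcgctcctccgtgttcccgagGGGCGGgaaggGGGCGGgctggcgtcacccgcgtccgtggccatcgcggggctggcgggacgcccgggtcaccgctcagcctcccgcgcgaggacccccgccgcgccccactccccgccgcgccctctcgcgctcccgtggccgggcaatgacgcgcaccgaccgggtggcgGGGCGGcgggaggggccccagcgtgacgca
Nfil3: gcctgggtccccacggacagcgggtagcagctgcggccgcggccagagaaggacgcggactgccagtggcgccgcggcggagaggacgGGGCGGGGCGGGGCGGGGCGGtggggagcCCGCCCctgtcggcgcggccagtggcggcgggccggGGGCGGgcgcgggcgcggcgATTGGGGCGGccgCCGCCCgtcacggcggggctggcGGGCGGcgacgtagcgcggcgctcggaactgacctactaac
Of the 10 members, 8 had an entry (Runx1 had a pair of start sites), and Spi1 and Cebpd are named only. A GC box, the motif of Sp and KLF factors, was found in 6 of the 8, with 9 matches before Nfil3, some of them overlapping, 5 before Cebpb, 4 before Klf4 and 1 before Id2. It is in 32.7% of the 32851 mouse promoter windows of this length. The CCAAT box was found in 3 of the 8 and is in 33.8% of all windows. Id2 held 3 and Nfil3 held 1, which overlaps a GC box. No window of a member held the letters TGACGTCA (the CRE, in 1.55% of windows), TTGCNNAA (a C/EBP site, 9.56%), TTCNNNGAA (a STAT site, 7.02%), the NF-κB site searched (1.41%) or the CArG box of serum response factor (1.47%). The base content was high in G and C, 81.6% in both Cebpb and Nfil3, 74% in Klf4 and 62.8% in Id2.

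Both agents and their combination were compared with Vehicle in BM, with the same 3 Vehicle libraries in each comparison and in Vehicle against WT. The GLP-1R agonist changed 5 of 10 members past both limits (Klf4 higher, and Cebpb, Klf2, Nfil3 and Nr4a1 lower), where 16.7% of all genes were called. Anti–IL-17A changed 4 (Cebpd and Klf4 higher, Nfil3 and Id2 lower), beside 16.1% of all genes, and Combo changed 3 (Cebpd and Klf4 higher, Id2 lower), beside 17.7%. By adjusted p alone all 10 differed in Combo against Vehicle, and 73.8% of all genes did.

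Against WT, no member was past both limits in Combo (edgeR, with 14.3% of all genes called), although 9 of 10 had an unadjusted p under 0.05, and DESeq2 also called 0. Id2 remained 1.85-fold higher, Nfil3 1.66-fold and Spi1 1.65-fold higher, and Klf2 overlapped WT (log2 0.01, SE 0.03). Id2 was the single member called with the GLP-1R agonist against WT (2.53-fold higher, beside 14.7% of all genes), and Nr4a1 the single one with anti–IL-17A against WT (2.99-fold higher, beside 6.32%).

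Between treated groups in BM, Combo against the GLP-1R agonist gave no member past both limits (edgeR, with 13.2% of genes called), while all 10 had an unadjusted p under 0.05 and DESeq2 called 0. Combo against anti–IL-17A gave 1, Nr4a1, 2.29-fold lower in Combo, beside 5.67% of genes. The GLP-1R agonist against anti–IL-17A gave 2, Klf4 and Nr4a1, lower with the GLP-1R agonist by 2.03-fold and 2.54-fold, beside 5.83% of genes.

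Since the Ob/Ob groups cross the 2 agents, the log2 change in Combo was compared with the sum of the log2 changes under each agent alone. This departure was past both limits for 5 members in BM, where 21.1% of all genes were. For Klf4 the single agents raised the level by 2.37 and 3.40 on the log2 scale and Combo by 2.72, a departure of -3.05 (SE 0.08, edgeR adjusted p = 1.11e-29). For Nfil3 it was 2.03 (SE 0.06), for Cebpb 1.70 (SE 0.17), for Id2 1.18 (SE 0.05) and for Spi1 1.02 (SE 0.04). In these 4 Combo was higher than the sum. Spi1 fell below the limit when Vehicle replicate 3 was left out (0.97), and in the fit of the groups compared alone or of genes with at least 10 counts in every library (0.99 in both). The departure sets Vehicle and Combo, with mean Xist of 6544 and 3610 normalized counts, against the single agents, with 2.17 and 98.4. A difference in sex therefore cannot be told apart from the departure.

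In ATMs the factors that changed were largely others. Against WT, 3 of 10 members were called in Vehicle, Spi1, Cebpb and Klf2, all higher, where 35.4% of all genes were called, and 7 of 10 differed by adjusted p alone, beside 56.9%. The median log2 fold change was 0.24 over the members and -0.21 over all genes.

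Spi1 had the largest change. It had 1835, 1797 and 1841 normalized counts in WT and 10405, 10345 and 10446 in Vehicle, 5.70-fold higher (log2 2.51, SE 0.05, edgeR adjusted p = 5.71e-16). With the GLP-1R agonist it had 4618 to 4957, with anti–IL-17A 7210 to 7251 and in Combo 5927 to 6375. All 5 groups were apart, and every Ob/Ob group was above WT. Between any pair of groups in ATMs, 43.4% to 62.9% of all genes were also without overlap. Spi1 was called lower than in Vehicle with the GLP-1R agonist alone (2.19-fold), and was 1.44-fold lower with anti–IL-17A and 1.70-fold lower in Combo. Csf1r, the macrophage growth factor receptor and a target of PU.1, did not follow Spi1 in Vehicle. It was at 18150 ± 458 (SD, n = 3) in WT and 1579 ± 274 in Vehicle, and at 22367 ± 373 in Combo. In Combo, Csf1r was thus above WT, as Spi1 was, and above Vehicle, where Spi1 was below. Neutrophil markers were higher than in WT in Vehicle and Combo. In the anti–IL-17A group, where Spi1 was 3.96-fold above WT, neutrophil markers were at 254 to 257 CPM, against 184 to 206 in WT, and macrophage markers at 6424 to 6664 CPM, against 2323 to 2398. The part of either in the Spi1 result was not tested.

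Cebpb varied widely among the WT libraries, at 11506, 7915 and 2296 normalized counts. In Vehicle it was at 42252, 36098 and 38709, above every library of the other groups. The rise was 5.39-fold (log2 2.43, SE 0.40, edgeR adjusted p = 0.000101), and ran from 2.01 to 2.93 on the log2 scale as 1 library at a time was left out, the lowest without WT replicate 3 and the highest without WT replicate 1. The other groups were at 4816 to 10288 with the GLP-1R agonist, 8852 to 11279 with anti–IL-17A and 11275 to 14819 in Combo, 5.60-fold, 3.76-fold and 3.01-fold below Vehicle, all called. Cebpb is among the genes that the study chose on these samples as raised in ATMs, as are Id2 and Nfil3. In Vehicle against WT here, Id2 was higher by 0.20 and Nfil3 by 0.47 on the log2 scale, neither called. Tmem189, the opposite-strand neighbour of Cebpb, was at 2967 ± 48.7 (SD, n = 3) in WT and 7359 ± 259 in Vehicle.

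Klf2 followed the same order of groups as Cebpb (r = 0.89 over the 15 libraries). It had 9194, 9287 and 8348 in WT and 25644, 24817 and 27767 in Vehicle, 2.92-fold higher (log2 1.54, SE 0.06, edgeR adjusted p = 5.65e-12). With the GLP-1R agonist it had 6612 to 7531, below WT, with anti–IL-17A 9429 to 10388 and in Combo 11457 to 11895. Its fall against Vehicle was 3.65-fold, 2.60-fold and 2.25-fold in these groups, each called.

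Cebpd divided the ATM groups by antibody. WT (7492 to 8053), Vehicle (6075 to 6957) and the GLP-1R agonist group (6678 to 7509) were high, and anti–IL-17A (2623 to 3187) and Combo (2624 to 2944) were low. It was called lower than in Vehicle in both groups given the antibody, 2.28-fold and 2.35-fold, and these groups overlapped each other (log2 -0.04, SE 0.08, edgeR adjusted p = 0.775). Spidr, its opposite-strand neighbour, was at 792 ± 191 (SD, n = 3) in Vehicle, 510 ± 78.3 with anti–IL-17A and 737 ± 22.1 in Combo.

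Runx1 and Klf4 were set apart by the GLP-1R agonist in ATMs. Runx1 had 2527, 2424 and 2624 normalized counts there, against 901 to 1035 in Vehicle and 1040 to 1277 in Combo, 2.66-fold above Vehicle (log2 1.41, SE 0.14, edgeR adjusted p = 4.35e-07). Klf4 had 15836, 15599 and 17125 with the GLP-1R agonist, 9818 to 10581 in Vehicle and 6443 to 7104 in Combo, its lowest group. Vehicle and WT (8820 to 11052) overlapped for Klf4 (log2 -0.01, SE 0.07, edgeR adjusted p = 0.960), whereas the same comparison in BM gave a fall of 7.22-fold.

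The remaining members changed little or were at the fold limit. Nfil3 had 7328 to 8778 in Vehicle and 3729 to 4133 with anti–IL-17A, 2.10-fold lower and called, and 4986 to 5194 in Combo, 1.61-fold lower. Id2 kept within 9651 to 13360 in all 15 libraries, and its ratio of highest to lowest group mean, 1.31, was above that of 3.44% of ATM genes, whose median ratio was 2.82. Nr4a1 had 50633 to 54281 in WT, 43616 to 45261 in Vehicle and 29272 to 35776 in the 3 treated groups, with no call against Vehicle. Cebpa had 474 to 688 in WT and 582 to 740 in Vehicle, which overlapped, and 981 to 1165 with anti–IL-17A, its highest group.

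**Figure D3:**
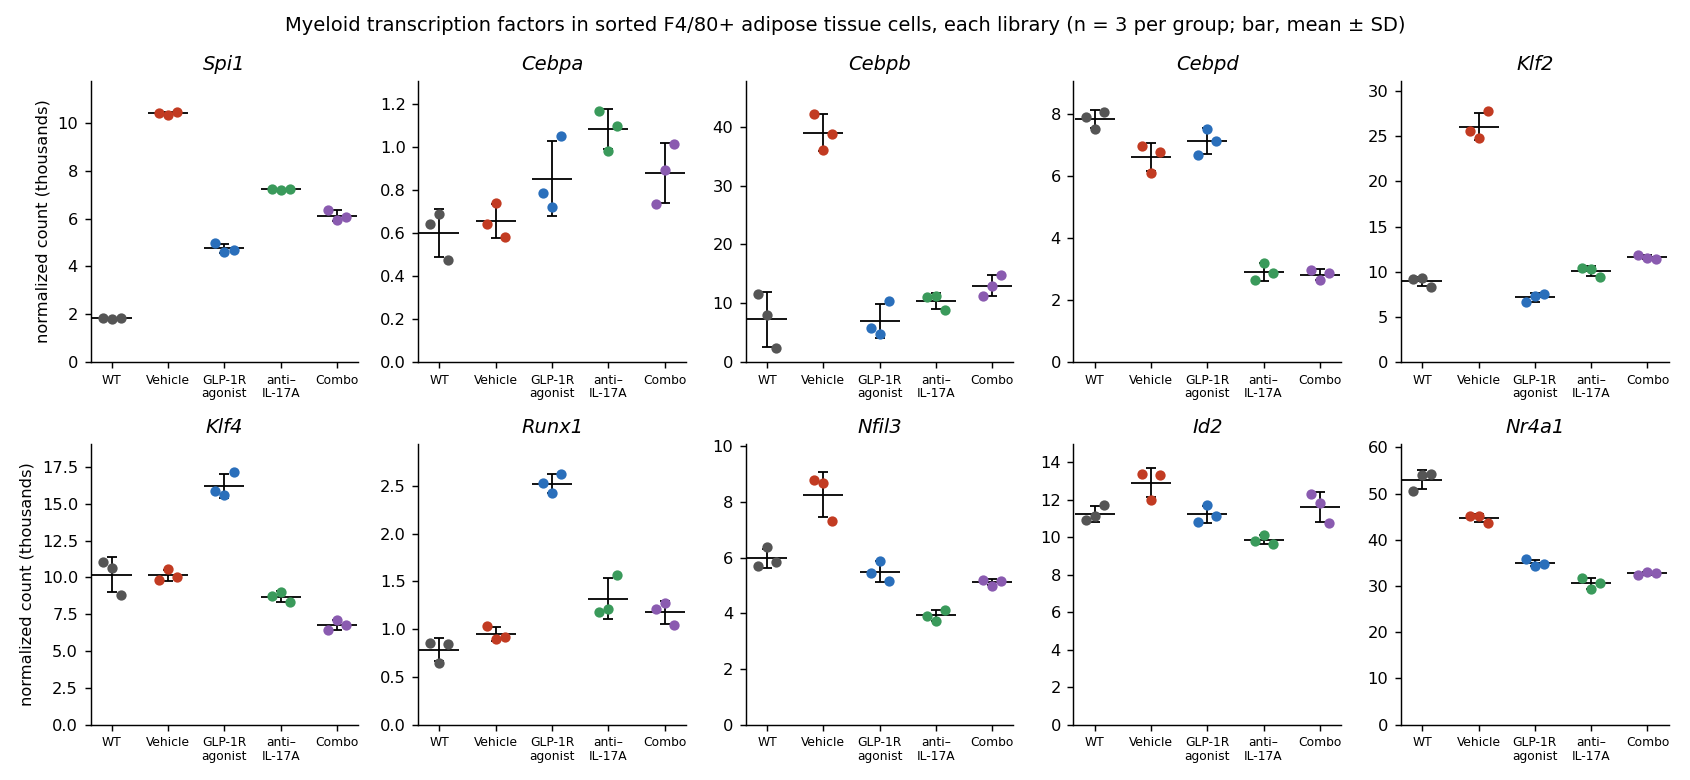
Normalized counts (axis in units of 1000) of the 10 factors in each library of F4/80+ adipose tissue cells, with the mean and SD of the 3 libraries of each group. Spi1 separates all 5 groups, Cebpb and Klf2 are highest in Vehicle, and Cebpd is low in both groups given the antibody (2623 to 3187 and 2624 to 2944).

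Counted over the members, the GLP-1R agonist changed 4 against Vehicle in ATMs (Runx1 higher, and Spi1, Cebpb and Klf2 lower, beside 31.8% of all genes), anti–IL-17A changed 4 (Cebpb, Cebpd, Klf2 and Nfil3, all lower, beside 35.5%) and Combo changed 3 (Cebpb, Cebpd and Klf2, all lower, beside 26.4%). By adjusted p alone 8 differed in Combo, all lower, beside 48.7% of all genes. These shares of called members are near those of all genes, and the comparisons share the Vehicle libraries. Against WT, Combo had 2 calls (Spi1 3.36-fold higher, Cebpd 2.78-fold lower, beside 21.6%). The GLP-1R agonist had 2 (Spi1 2.60-fold and Runx1 3.22-fold higher, beside 15.1%) and anti–IL-17A had 2 (Spi1 3.96-fold higher, Cebpd lower by a log2 fold change of -1.44, beside 18.7%).

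Between treated groups in ATMs, Combo against the GLP-1R agonist gave 3 members, Cebpd, Klf4 and Runx1, all lower in Combo by 2.53-fold, 2.39-fold and 2.15-fold, beside 18.7% of genes. Combo against anti–IL-17A gave none past both limits (edgeR, with 14.2% of genes called), with 6 of 10 at an unadjusted p under 0.05 and 0 called by DESeq2. The GLP-1R agonist against anti–IL-17A gave 1, Cebpd, 2.46-fold higher with the GLP-1R agonist, beside 8.1% of genes. The difference between Combo and the summed single agents was past both limits for 4 members, beside 35.9% of all genes. It was 2.81 (SE 0.55) for Cebpb, 2.07 (SE 0.09) for Klf2, -1.57 (SE 0.19) for Runx1 and -1.04 (SE 0.10) for Klf4 on the log2 scale, the last at -0.93 in the fit of the groups compared alone and at -0.996 without GLP-1R agonist replicate 3. Nfil3, at 0.97, passed the limit with DESeq2 (1.00) and without Vehicle replicate 3 (1.06). Vehicle and Combo had mean Xist of 1250 and 1129 normalized counts, and the single agents 0 and 13.5. Neutrophil markers were at 13874 to 14721 and 7769 to 8077 CPM, against 129 to 132 and 254 to 257. Sex and cell content therefore cannot be told apart from the departure.

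The effect of Vehicle against WT was then compared between tissues, in a limma fit of all 30 libraries over the 13076 genes in both tables. It differed for 8 of the 10 members, beside 53% of all genes, and not for Cebpa and Runx1. Klf4 (log2 difference, ATM minus BM, 2.87, SE 0.12), Spi1 (2.03, SE 0.10) and Id2 (-1.89, SE 0.08) differed most. Nr4a1 was the member that passed an adjusted p of 0.05 in opposite directions, at 1.29 in BM and -0.25 in ATMs. For Combo against Vehicle, 6 of 10 differed between tissues, beside 52.6% of genes, and Cebpa, Cebpb, Runx1 and Nfil3 did not. Spi1, Cebpd and Klf4 had opposite signs in the 2 tissues for that comparison, with Cebpd at 1.35 in BM and -1.23 in ATMs and Klf4 at 2.72 and -0.58. Nfil3 was close in both, at -0.70 and -0.69 (difference 0.06, SE 0.09).

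**Figure D4:**
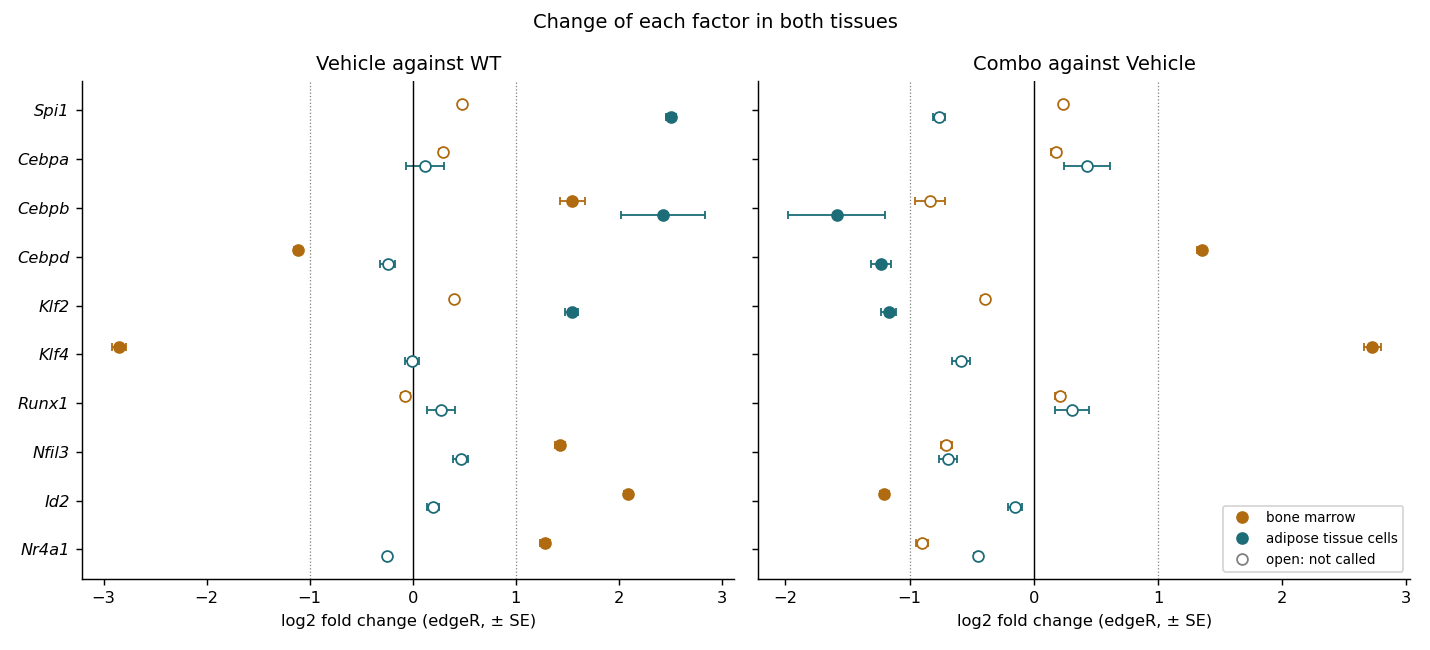
Log2 fold change (± SE, edgeR) of each factor in Vehicle against WT (left) and Combo against Vehicle (right) in BM and in F4/80+ adipose tissue cells, with filled points for calls. Klf4 and Id2 moved in BM with little change in the adipose tissue cells for Vehicle against WT, Spi1 did the reverse, and Cebpd moved in opposite directions in Combo.

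Per kilobase of exon, the scale on which levels of different genes can be set side by side, Spi1 was the highest member in BM, with a mean of 4973 normalized counts per kb over the 15 libraries, then Cebpb (3483), Klf2 (3323) and Id2 (2637). Runx1 was the lowest at 182. In ATMs Nr4a1 (11168) and Cebpb (10185) led and Runx1 (112) was again the lowest. The 2 tables were normalized separately, so these levels are not compared between tissues.

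Partners and relatives of the members, a list of 30 genes, were called in BM for 11 in Vehicle against WT, 6 higher and 5 lower, with a median log2 fold change of -0.16, beside 19.5% of all genes called. Irf4, a lymphoid and macrophage factor that binds DNA with PU.1, fell by 2.45 on the log2 scale, Id3, a relative of Id2, fell by 2.38, and Nr4a3, a relative of Nr4a1, rose by 2.00. Spib, a PU.1 relative of B cells, fell by 1.87, beside the fall of B cell markers. In Combo against Vehicle 9 of the 30 were called, 3 higher and 6 lower, beside 17.7% of all genes, with Nr4a3 at -3.10 and Maf at -2.46. In ATMs 7 of 30 were called in Vehicle against WT, a smaller share than the 35.4% of all genes, and 14 in Combo against Vehicle (7 higher, 7 lower), beside 26.4%. There Cebpe, the C/EBP factor of late granulocytes, rose by 2.71 in Vehicle, and Maf, a macrophage factor, fell by 2.02 in Vehicle and rose by 2.32 in Combo.

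Of 14 known target genes, 7 were called in BM in Vehicle against WT, 4 higher and 3 lower, with a median log2 fold change of -0.07, beside 19.5% of all genes called. Arg1, the arginase that C/EBPβ drives in myeloid cells, rose by 7.54 on the log2 scale, Cd14, the co-receptor for endotoxin, by 3.93, and Il6 by 3.23, all in the direction of Cebpb. The part of Cebpb, or of any member, in the changes of these 14 genes was not tested. Thbd, thrombomodulin, a target of Klf2 and Klf4, fell by 1.88, in the direction of Klf4 and against that of Klf2. In Combo against Vehicle 6 were called, 3 higher and 3 lower (median -0.01), beside 17.7% of all genes. The 3 lower were Arg1 at -8.46, Il6 at -3.99 and Cd14 at -2.42. In ATMs 11 of 14 were called in Vehicle against WT, 9 higher and 2 lower (median 1.67), beside 35.4% of all genes, with Lcn2, a neutrophil granule protein, at 6.54, Elane, neutrophil elastase, at 2.42 and Csf1r at -3.52, beside the rise of neutrophil markers. In Combo against Vehicle 9 were called, 5 higher and 4 lower, beside 26.4% of all genes, with Mpo at 4.37 and Il6 at -4.04. Mpo and Elane are also among the immature granulocyte markers, which were at 382 to 408 CPM in Combo and 16 to 21.1 in Vehicle.

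Nr4a1, Klf2, Klf4 and Cebpb can also be induced when tissue is handled, as are the 12 immediate early and heat shock genes listed beside them. Their summed level in BM was 2287 to 2358 CPM in WT, 1848 to 1887 in Vehicle, 1551 to 1574 with the GLP-1R agonist, 3284 to 3387 with anti–IL-17A and 2448 to 2466 in Combo, and in ATMs 25742 to 26196 in WT, 24881 to 24942 in Vehicle and 17168 to 19231 in the treated groups. The sum is in CPM, without TMM scaling. In CPM, Nr4a1 in ATMs was highest in WT (1709 to 1812), and its lowest library was of anti–IL-17A (921 to 998). The sum was also highest in WT and lowest with anti–IL-17A (17168 to 17468). Nr4a1 was at 1070 to 1092 in Combo and 988 to 1028 with the GLP-1R agonist, whereas the sum was slightly higher with the GLP-1R agonist. With TMM scaling, the median log2 fold change of the 12 genes in Vehicle against WT was 0.39 in ATMs, and that of Nr4a1 was -0.25. In BM Nr4a1 and the sum shared anti–IL-17A as the highest group, but Vehicle was above WT for Nr4a1 and below it for the sum. In BM 4 of the 12 were called in Vehicle against WT, 2 in each direction, beside 19.5% of all genes, with Fosb at -2.28 and Atf3 at 1.22. In ATMs 2 were called, Hspa1a (2.47) and Hspa1b (2.41), a smaller share than the 35.4% of all genes. The part of handling in these results was not tested.

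By Pearson r of log2 CPM over the 15 libraries of a tissue, the gene most like Klf4 in BM was L1cam (r = 0.990), the one most like Id2 was Nt5c2 (0.989), and those most like Cebpb and Nfil3 were Slc44a2 (0.975) and Il3ra (0.995). In ATMs Spi1 was most like Tlr13 (0.992), Klf2 most like Psme2, a proteasome activator subunit (0.996), and Cebpb most like Ccdc71l (0.987). With 5 tight groups, many genes share a pattern. In BM 202 of 8742 genes had an r above 0.9 with Klf4 and 257 with Id2, but 1 with Nr4a1, and in ATMs 388 of 9723 did so with Klf2 and 157 with Spi1.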

How the data were processed

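Paired-end polyA libraries of whole BM and of sorted F4/80+ cells, 3 per group of 5 groups, were sequenced without strand. STAR 2.7.2a (build mm10) and featureCounts 2.0.1 with GENCODE annotation gave the whole-number counts per gene that the authors deposited, in 1 table per tissue. Reads that overlap several genes were counted for each. Replicates were labelled as biological, all of 1 batch. The 10 members, the gene lists and the tests were chosen with earlier results of these data known.

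Counts were fitted here, as deposited, with edgeR 4.0.16 under R 4.3.3, by a quasi-likelihood test with TMM scaling and robust dispersions, with the 15 libraries of a tissue in 1 model and with Benjamini-Hochberg adjustment over all genes. The filter on low counts removed 0 genes. Standard errors are the absolute log2 fold change over the square root of F. Tissues were compared with limma 3.58.1 (voom with quality weights). DESeq2 1.42.0, other filters and scalings, a replicate block and each library left out were alternatives. The edgeR steps were tested on simulated data. All 10 members are named, and up to 4 genes of each list are named, those with the largest change among the called. Fold changes and p-values that the authors computed were not used here. Gene coordinates and shared exons are from GENCODE M21, of the same build.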

Additional observations from a re-analysis of the deposited data

Results flagged for a closer look

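The results given here are the members whose change differed between BM and ATMs by a test of the difference itself (limma, adjusted p under 0.05 over 13076 genes), as the log2 fold change in ATMs minus that in BM. For Vehicle against WT the difference was 2.87 for Klf4, 2.03 for Spi1, 1.18 for Cebpb, 1.15 for Klf2, 0.87 for Cebpd, -0.97 for Nfil3, -1.53 for Nr4a1 and -1.89 for Id2. For Combo against Vehicle it was 1.09 for Id2, 0.49 for Nr4a1, -0.73 for Klf2, -0.96 for Spi1, -2.54 for Cebpd and -3.28 for Klf4. Both comparisons share the Vehicle libraries. Neutrophil markers in the sorted cells, at 13874 to 14721 CPM in Vehicle and 184 to 206 in WT, moved with the first comparison, and their part in it was not tested.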

How the results depend on the processing

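Of 2040 values of single members under the alternatives, 1997 kept their direction and side of the limits, 29 changed sign, 9 passed the limits and 5 fell short of them. With no limit on fold change the members past the test in BM were 8 for the GLP-1R agonist and 8 for anti–IL-17A against Vehicle, 10 for Combo against Vehicle, 9 for Combo against WT, 10 and 8 for Combo against the GLP-1R agonist and anti–IL-17A, and 8 for the departure from the sum. In ATMs they were 7 for Vehicle against WT, 8, 10 and 8 for the 3 treatments against Vehicle, 8 for Combo against WT, 6 and 6 for Combo against the single agents, and 9 for the departure. Leaving out 1 library at a time gave 0 to 1 member for Combo against the GLP-1R agonist in BM, the 1 being Cebpb (1.01) without GLP-1R agonist replicate 3. In ATMs Cebpb also passed for Combo against WT without WT replicate 1 (1.35) and for Combo against the GLP-1R agonist without its replicate 3 (1.29), and the departure of 3 to 5 members passed. The cause was not tested.

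Signs changed only for values near 0 that were not called. In BM, Cebpb in Combo against anti–IL-17A was at -0.0036 with DESeq2 size factors, -0.0029 with DESeq2, -0.015 at a minimum of 10 counts in every library, -0.037 in the groups compared alone, and -0.043 to 0.072 with 1 library left out. Klf2 in Combo against WT was at -0.018 at that minimum and -0.016 to 0.041 with 1 library left out, Runx1 in Combo against anti–IL-17A at -0.054 to 0.021 and its departure at -0.013 to 0.062. In ATMs, Klf4 in Vehicle against WT was at 0.012 with DESeq2 size factors and with DESeq2, 0.031 in the groups compared alone and -0.098 to 0.058 with 1 library left out. Cebpa ran from -0.022 to 0.23 in Vehicle against WT and from -0.068 to 0.22 in Combo against the GLP-1R agonist, and Cebpd from -0.10 to 0.035 in Combo against anti–IL-17A.

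Correlations of the deviations of same-numbered replicates were -0.03 to 0.05 in BM and -0.02 to 0.03 in ATMs, none above 0.1, so the numbers were not taken to pair the samples. By mean correlation with the other groups, 10 of 15 libraries in BM and 7 of 15 in ATMs were nearest to their own number, a hint from the data and not from the design. With the replicate block the members called were again 6 in BM and 3 in ATMs for Vehicle against WT, and no count changed.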
